A study of Homo sapiens with 15 samples.

Results

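The transcripts of the hypoxia-inducible factor (HIF) system were followed in 143B cells, an established human osteosarcoma line, in 5 conditions. The 42 genes described here are 8 genes of the HIF pathway itself (HIF1A, EPAS1, ARNT, VHL, HIF1AN, EGLN1, EGLN2 and EGLN3) and 34 genes known as hypoxia targets outside glycolysis. They were chosen by name, with earlier results of these data known. All 42 were found among the 62700 genes of each of the 2 deposited count tables. All 42 passed the filter on low counts, which left 14287 genes in the first table and 14574 in the second.

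The first table held 3 libraries of adherent 143B cells (non-OSCs, genotype WT) and 3 of 143B spheres, which the study named osteosarcoma stem cells (OSCs, genotype WT). Per the study's methods, adherent cells were kept in DMEM with fetal bovine serum and pyruvate, and spheres in DMEM/F12 with B27 supplement, GlutaMAX, EGF and basic FGF. Medium, serum, growth factors and attachment therefore changed together and cannot be told apart here. The second table held 143B cells infected with lentivirus that carried a control hairpin (shCtrl, genotype WT, 3 libraries) or 1 of 2 hairpins against PDK1, the mitochondrial kinase that restrains pyruvate dehydrogenase (genotypes shPDK1_1 and shPDK1_2, written shPDK1#1 and shPDK1#2, 3 libraries each). The study describes the control and knockdown cells of this experiment as OSCs, so shCtrl is a sphere control with a hairpin, although the labels do not name the culture of these 9 libraries. All 15 libraries came from 1 cell line, oxygen was not measured, and nothing in the labels says that the replicates were separate cultures, so p-values measure the spread between these libraries, which may be technical.

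HIF is a transcription factor made of an oxygen-regulated alpha subunit (HIF-1 alpha or HIF-2 alpha, encoded by HIF1A and EPAS1) and a constant beta subunit (ARNT). When oxygen is present, the prolyl hydroxylases encoded by EGLN1, EGLN2 and EGLN3 mark the alpha subunit for the ubiquitin ligase that contains VHL, and the asparaginyl hydroxylase HIF1AN blocks its activity. When oxygen is scarce the alpha protein escapes this control, enters the nucleus and binds a short DNA element with the core ACGTG or GCGTG, and the products of its targets act on blood vessels, pH, collagen, mitochondria, lipid stores and glycolysis. Because the alpha subunits are controlled mainly as proteins, their transcripts need not follow HIF activity.

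Summed counts ranged from 7992499 to 10495051 per library in the first table and from 8073055 to 11256536 in the second. Levels are given as CPM, read counts scaled to a common library total after adjustment by the trimmed mean of M-values (TMM) within a table, and their precision is set by these depths and by 3 libraries per group. Changes are log2 fold changes from edgeR's quasi-likelihood test with the standard error (SE) after ±, and rose, fell, higher and lower are used of genes with a Benjamini-Hochberg adjusted p under 0.05 over all genes tested. Among markers of the osteoblast lineage, COL1A1 and SPARC were present, whereas SP7 and IBSP were at 0 or at most 1 count per library. The summed level of the 9 osteoblast markers was 1081 to 1144 CPM in non-OSCs, 2490 to 2570 in OSCs, 3644 to 3722 in shCtrl, 3911 to 3985 in shPDK1#1 and 5201 to 5335 in shPDK1#2, and its part in the members' differences was not tested. The sum hides unequal members, since in spheres 3 of the 5 osteoblast markers tested were higher and 1 lower. With shPDK1#1 1 of 6 was higher, and with shPDK1#2 4 of 6 were. Over all genes tested, 32.4% were called higher and 31.5% lower in spheres, and 1.62% and 12% were called higher with shPDK1#1 and shPDK1#2. Summed levels of the immune, endothelial and epithelial markers were at most 2.76, 1.84 and 4.54 CPM in any library. Those of 2 pericyte markers and 4 stem cell factors were 4.23 to 5.24 and 36.0 to 44.3 CPM in non-OSCs and 20.5 to 23.6 and 95.9 to 111 in OSCs, and their part was not tested either. Of the 4 stem cell factors, 3 were higher in spheres and 1 was not called, with a log2 value of -0.20. Only 1 of the 2 pericyte markers was tested, and it was higher. The targeted gene was at 45.2 ± 1.27 CPM (SD, n = 3) in shCtrl, 28.0 ± 0.842 in shPDK1#1 and 19.8 ± 1.65 in shPDK1#2, which is a log2 fold change of -0.69 ± 0.083 (SE, edgeR adjusted p = 7.13e-06) and -1.19 ± 0.086 (SE, edgeR adjusted p = 5.89e-11).

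To show the element in question, the 250 bases before the RefSeq gene start (GRCh38.p14) are printed for 6 members whose levels are described further on, each chosen because its window holds at least 1 ACGTG. The windows lie at chr9:35673678-35673927 (plus strand) for CA9, chr5:122078260-122078509 (minus strand) for LOX, chr19:8363905-8364154 (plus strand) for ANGPTL4, chr4:185396591-185396840 (plus strand) for ANKRD37, chr10:72273674-72273923 (plus strand) for DDIT4 and chr10:91633072-91633321 (minus strand) for PPP1R3C. Each is given 5′ to 3′ on the strand of its gene, and capitals mark ACGTG read on either strand (CACGT is the same element on the other strand). The GENCODE 44 models of ANGPTL4 and ANKRD37 begin upstream of the RefSeq start, so these 2 windows lie inside the annotated genes. That of LOX does so for 154 of its 250 bases, with 3 of its 4 matches, and that of DDIT4 for 5 bases with no match, while those of CA9 and PPP1R3C end where the gene begins.
CA9: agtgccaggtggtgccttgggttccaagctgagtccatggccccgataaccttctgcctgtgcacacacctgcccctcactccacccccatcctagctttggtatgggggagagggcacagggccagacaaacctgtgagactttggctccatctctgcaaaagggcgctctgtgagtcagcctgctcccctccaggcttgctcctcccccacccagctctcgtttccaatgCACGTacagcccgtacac
LOX: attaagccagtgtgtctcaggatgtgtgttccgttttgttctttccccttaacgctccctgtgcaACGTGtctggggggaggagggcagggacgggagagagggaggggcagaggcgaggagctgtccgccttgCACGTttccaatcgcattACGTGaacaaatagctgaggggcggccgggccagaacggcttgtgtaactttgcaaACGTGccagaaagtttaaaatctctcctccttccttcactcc
ANGPTL4: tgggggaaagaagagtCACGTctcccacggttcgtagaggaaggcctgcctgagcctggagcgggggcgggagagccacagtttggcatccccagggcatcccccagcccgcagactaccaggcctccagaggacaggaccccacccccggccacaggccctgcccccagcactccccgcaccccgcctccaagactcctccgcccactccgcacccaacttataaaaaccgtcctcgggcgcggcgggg
ANKRD37: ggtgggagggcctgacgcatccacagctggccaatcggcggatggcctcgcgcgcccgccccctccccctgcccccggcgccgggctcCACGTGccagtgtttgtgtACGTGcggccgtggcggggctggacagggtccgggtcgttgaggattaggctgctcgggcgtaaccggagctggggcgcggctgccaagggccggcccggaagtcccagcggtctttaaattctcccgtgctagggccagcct
PPP1R3C: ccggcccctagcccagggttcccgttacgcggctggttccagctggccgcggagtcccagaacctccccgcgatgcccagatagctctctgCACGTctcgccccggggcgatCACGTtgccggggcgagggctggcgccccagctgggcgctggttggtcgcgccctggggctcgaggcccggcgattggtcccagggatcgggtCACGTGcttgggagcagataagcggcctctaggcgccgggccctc
DDIT4: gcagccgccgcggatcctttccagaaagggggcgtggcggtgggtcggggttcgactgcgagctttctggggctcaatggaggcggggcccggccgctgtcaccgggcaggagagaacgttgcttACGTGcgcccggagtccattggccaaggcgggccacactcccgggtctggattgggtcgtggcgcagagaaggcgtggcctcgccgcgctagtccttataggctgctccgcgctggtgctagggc

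The RefSeq promoter table held 34 of the 42 members, without VHL, NDRG1, VEGFA, ANKZF1, BNIP3L, LOXL2, HILPDA and ZNF395. ACGTG, searched on both strands and with the palindrome CACGTG counted on each, was found in the window of 20 of 34 members (58.8%), against 18.5% of all 35116 promoters and 23.6% of the 10754 promoters of genes tested in the first table. Among targets it was found in 18 of 27 windows (66.7%), and among HIF pathway genes in 2 of 7 (28.6%). At least 2 matches were found in 11 of 34 windows (32.4%), against 7.52% of all promoters and 10.4% of those of tested genes. This is not a count of separate elements. In EGLN2, BNIP3, KDM4B, PPFIA4, FAM13A, AK4 and CITED2 the 2 matches are the 2 strands of 1 CACGTG. The variant GCGTG was found in 15 of 34 windows (44.1%), against 32.2% of all promoters and 46% of those of tested genes. The windows of HIF1A, EPAS1, ARNT, HIF1AN, EGLN3, CA12, ADM, KDM3A, P4HA2, STC2, MXI1, RORA, NRN1 and TMEM45A held no ACGTG. A match to these letters is a description of the window and does not show that HIF bound there, and a window without one says nothing about HIF.

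In spheres the targets were higher as a group. Of the 42 members, 40 passed an adjusted p of 0.05 between OSCs and non-OSCs, where the background was high at 63.9% of all genes tested (32.4% called higher and 31.5% lower). Members were called higher in 39 cases and lower in 1, HIF1AN. All 34 targets were higher, by a median log2 fold change of 1.58, and the 8 HIF pathway genes had a median of 0.21. The median over all 42 was 1.37 (2.59-fold), beside -0.01 over all genes tested. A rise of at least 2-fold was seen in 27 members and of at least 4-fold in 13, and a called change of at least 2-fold in either direction was seen in 15.7% of all genes. In 40 members no OSC library fell within the range of the non-OSC libraries, against 66.9% of all genes. In bulk RNA, a change in the number of cells that express a gene and a change in RNA per cell cannot be told apart.

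**Figure D1:**
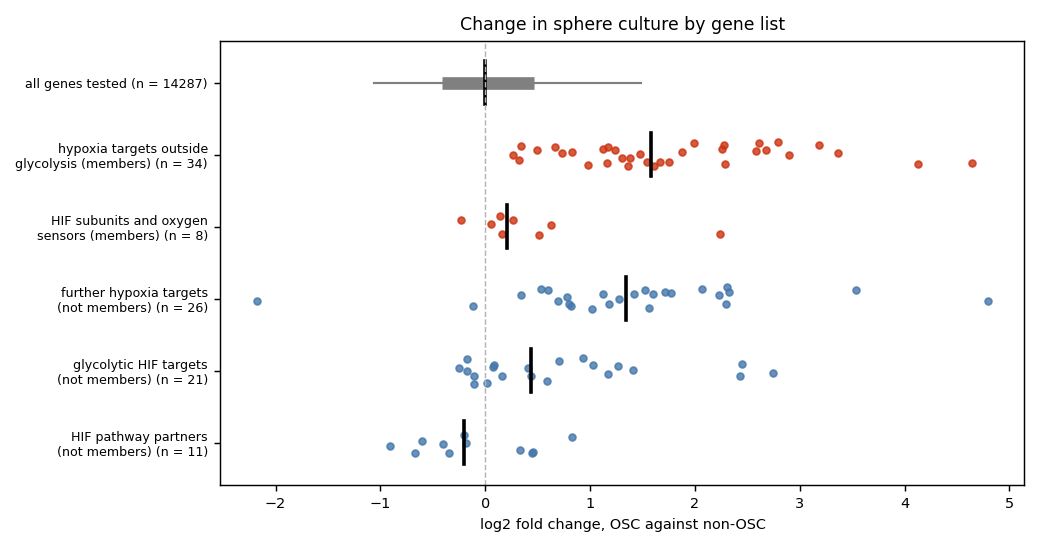
Log2 fold change of OSCs over non-OSCs (horizontal axis) for the 42 members, split into targets and HIF pathway genes. Further hypoxia targets, glycolytic targets and HIF partners that are no members are shown beside them. Each dot is a gene, a grey bar shows the spread of all genes tested, and a black line marks each median. Member targets lie from 0.27 to 4.65, whereas 7 of the 8 HIF pathway genes lie between -0.23 and 0.63 and EGLN3 lies at 2.24.

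Among the HIF subunits, HIF1A, which encodes HIF-1 alpha (chr14:61695513-61748259, plus strand; coordinates of genes are from GENCODE 44 on GRCh38), was at 253, 237 and 237 CPM in the 3 non-OSC libraries and at 261, 243 and 253 CPM in the 3 OSC libraries. These ranges overlapped, and the log2 difference was 0.06 ± 0.049 (SE, edgeR adjusted p = 0.311) with a 95% interval of -0.04 to 0.16. EPAS1, the HIF-2 alpha transcript (chr2:46293667-46386697, plus strand), was at 86.6, 86.4 and 87.4 CPM and 95.5, 96.5 and 98.0 CPM, and its log2 fold change was 0.16 ± 0.059 (SE, edgeR adjusted p = 0.0252). Its OSC libraries all lay above its non-OSC libraries, by a small margin, and the call was lost under 5 of 11 other settings (without non-OSC replicate 2 or 3, without OSC replicate 2 or 3 and with DESeq2), with an edgeR or DESeq2 adjusted p of up to 0.0899. ARNT, the shared beta subunit, rose from 69.1 ± 1.65 to 98.9 ± 7.24 CPM (SD, n = 3), a log2 fold change of 0.52 ± 0.067 (SE, edgeR adjusted p = 7.35e-07).

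The oxygen sensors moved to unequal extents. EGLN3, the prolyl hydroxylase that is itself a HIF target (chr14:33924227-34462774, minus strand), was at 12.3, 13.4 and 11.2 CPM in non-OSCs and at 57.4, 59.2 and 57.9 CPM in OSCs. Every OSC library lay above every non-OSC library, and the log2 fold change was 2.24 ± 0.096 (SE, edgeR adjusted p = 1.12e-14). EGLN1, the main prolyl hydroxylase in most cells, rose by a log2 fold change of 0.63 ± 0.069 (SE, edgeR adjusted p = 6.03e-08). VHL, which recognises hydroxylated HIF alpha, rose by 0.27 ± 0.079, and HIF1AN fell with a log2 fold change of -0.23 ± 0.068 (SE, edgeR adjusted p = 0.00537). EGLN2, the remaining prolyl hydroxylase, was at 58.2 ± 5.81 CPM in non-OSCs and 64.0 ± 3.83 in OSCs (SD, n = 3) and did not pass, with a 95% interval of -0.02 to 0.31 on the log2 scale (edgeR adjusted p = 0.128). Some of these genes share sequence with other annotated genes, which counting could split: 53.7% of the 75-base stretches of EGLN1 and 26.4% of those of EGLN2 occur elsewhere, mainly in overlapping gene models that were at 0 or under 1 CPM, and 23.5% of the exon bases of VHL lie opposite another gene model at 0.

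**Figure D2:**
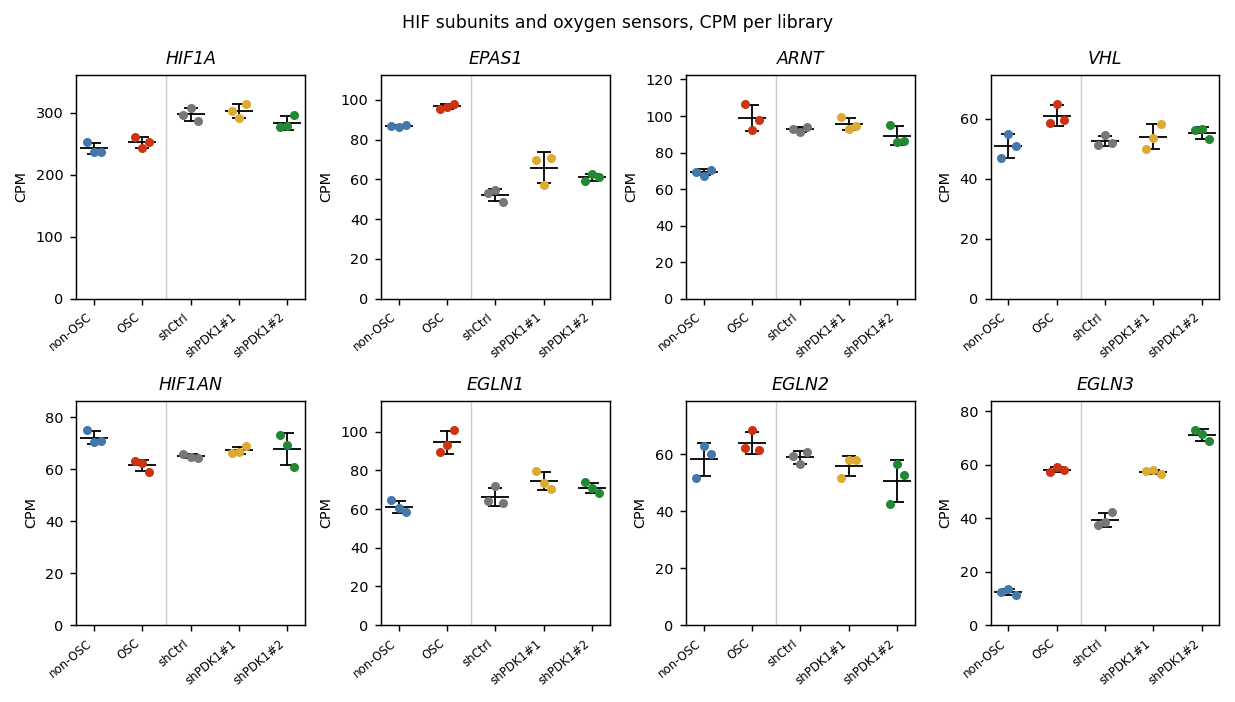
CPM (vertical axis) of the 8 HIF pathway genes in the 5 conditions, where each dot is a library, the bar is the mean of 3 and the error bar is the SD, and a grey line separates the 2 tables, which were normalized separately. HIF1A overlaps between non-OSCs and OSCs, whereas EGLN3 is higher in every OSC library than in every non-OSC library and higher in every PDK1 hairpin library than in every shCtrl library.

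The carbonic anhydrases at the cell surface, which exchange carbon dioxide for bicarbonate and protons, were both higher in spheres. CA9, located at chr9:35673928-35681159, plus strand, was at 0.289, 0.437 and 0.220 CPM in non-OSCs, which is 2 to 4 counts per library, and at 8.48, 7.47 and 8.68 CPM in OSCs, which is 69 to 74 counts. The fitted log2 fold change was 4.65 ± 0.34 (SE, edgeR adjusted p = 1.06e-10). The ratio of the summed counts (215 against 9, scaled for depth) was 26.0, with a 95% counting interval of 13.4 to 57.6 that covers counting error only. CA12 (chr15:63321378-63381846, minus strand) was at 29.0, 29.2 and 25.7 CPM and 171, 173 and 167 CPM, and its log2 fold change was 2.61 ± 0.068 (SE, edgeR adjusted p = 2.48e-18). For CA9, 35.7% of the exon bases lie opposite exons of ARHGEF39, which was at 8.44 CPM in OSCs and 17.9 in non-OSCs. Strandedness of the libraries is not given in the sources used here, so reads of CA9 and ARHGEF39 cannot be told apart in that stretch. The log2 fold change of ARHGEF39 was -1.09.

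The 6 members grouped as acting on vessels or as secreted or surface proteins all rose in spheres, with a median log2 fold change of 2.23. TMEM45A, a transmembrane protein (chr3:100492619-100577444, plus strand), was at 2.60, 3.28 and 2.20 CPM in non-OSCs and 24.0, 29.6 and 29.7 CPM in OSCs, a log2 fold change of 3.36 ± 0.17 (SE, edgeR adjusted p = 1.43e-13). ANGPTL4, a secreted inhibitor of lipoprotein lipase (chr19:8363289-8374370, plus strand), was at 40.5, 45.9 and 46.8 CPM and 309.8, 336 and 346 CPM, a log2 fold change of 2.90 ± 0.064 (SE, edgeR adjusted p = 1.69e-19). In both genes every OSC library lay above every non-OSC library. ADM, the precursor of the vasodilator peptide adrenomedullin, rose from 28.1 ± 3.10 to 167 ± 5.25 CPM, a log2 fold change of 2.58 ± 0.074 (SE, edgeR adjusted p = 1.44e-17), and NRN1, a surface-anchored neurite growth factor, rose from 31.0 ± 0.617 to 114 ± 4.78 CPM, a log2 fold change of 1.88 ± 0.070 (SE, edgeR adjusted p = 1.12e-15). VEGFA, the main growth factor for endothelial cells (chr6:43770184-43786487, plus strand), rose from 276, 284 and 287 CPM to 502, 507 and 495 CPM with no overlap, a log2 fold change of 0.83 ± 0.042 (SE, edgeR adjusted p = 1.93e-13). STC2, a secreted glycoprotein induced in cell stress, rose by 0.34 ± 0.051.

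All 4 enzymes that modify collagen and matrix rose, with a median log2 fold change of 1.91. LOX, the secreted oxidase that crosslinks collagen and elastin (chr5:122063195-122078413, minus strand), was at 32.9, 34.8 and 29.9 CPM in non-OSCs and 573, 571 and 569 CPM in OSCs. The lowest OSC library was far above the highest non-OSC library, and the log2 fold change was 4.13 ± 0.058 (SE, edgeR adjusted p = 1.19e-22), a 17.5-fold rise. The collagen prolyl hydroxylase subunits P4HA2 and P4HA1 rose by 2.28 ± 0.073 and 1.54 ± 0.073 on the log2 scale. LOXL2, a relative of LOX, rose from 227 ± 7.29 to 284 ± 11.3 CPM, a log2 fold change of 0.32 ± 0.048 (SE, edgeR adjusted p = 5.44e-06).

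**Figure D3:**
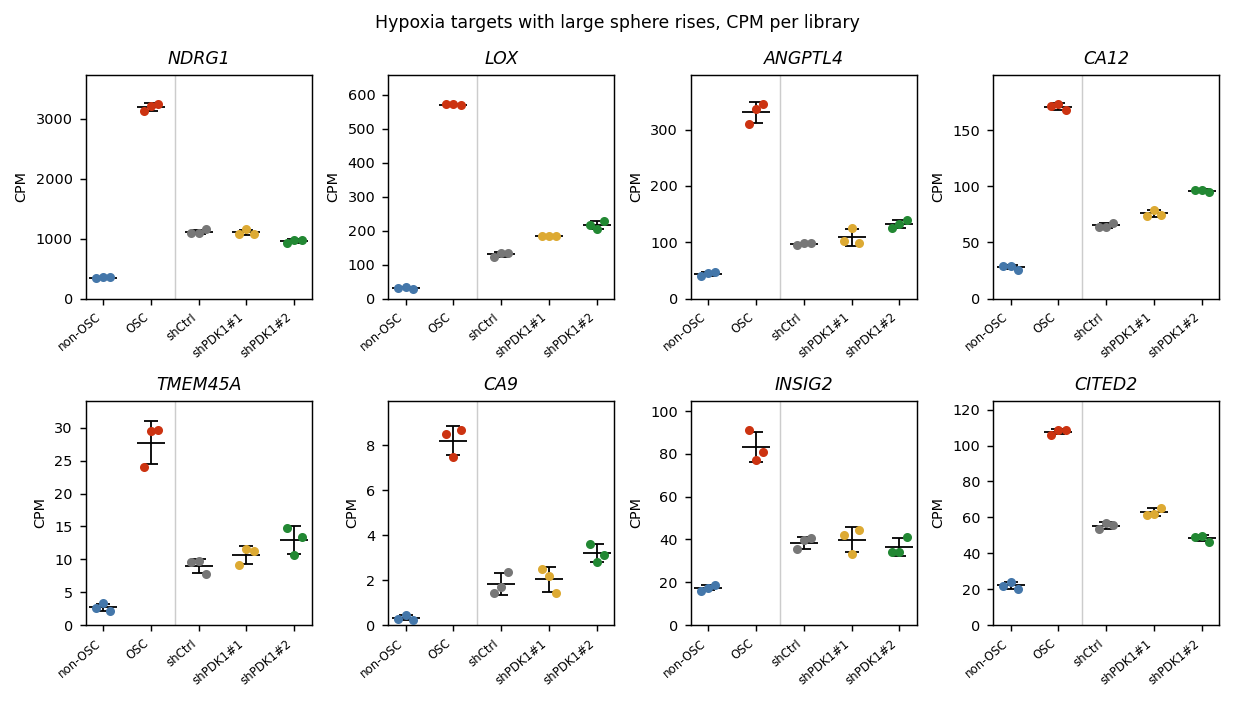
CPM (vertical axis) of 8 targets, NDRG1, LOX, ANGPTL4, CA12, TMEM45A, CA9, INSIG2 and CITED2, in the 5 conditions, where dots are libraries, bars are means of 3, error bars are SD and a grey line separates the separately normalized tables. In each of the 8, every OSC library lies above every non-OSC library.

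The 5 members concerned with stress, protein folding and turnover all rose. NDRG1, a stress-responsive protein linked to growth arrest and differentiation, was at 340.2, 357 and 360.1 CPM in non-OSCs and at 3133, 3214 and 3253 CPM in OSCs, with no overlap and a log2 fold change of 3.18 ± 0.038 (SE, edgeR adjusted p = 1.02e-23). Per kilobase of merged exon length it was the highest of the 42 members in OSCs, at 267 CPM per kb, against 29.4 and the sixth place in non-OSCs. DDIT4, an inhibitor of mTORC1 (chr10:72273919-72276036, plus strand), was at 143, 156 and 156 CPM in non-OSCs and 372, 402 and 409 CPM in OSCs, a log2 fold change of 1.38 ± 0.052 (SE, edgeR adjusted p = 1.22e-15). It was already the highest member per kilobase in non-OSCs, at 71.6 CPM per kb, and the next after NDRG1 in OSCs, at 186. WSB1, a substrate adaptor of a ubiquitin ligase, ERO1A, the oxidase that renews disulfide-forming capacity in the endoplasmic reticulum, and ANKZF1, which acts in the quality control of stalled ribosomes, rose by 1.24 ± 0.091, 1.12 ± 0.057 and 0.66 ± 0.066 on the log2 scale.

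Of the 4 members at mitochondria, BNIP3L and BNIP3, receptors that direct mitochondria to autophagy, rose most. BNIP3 (chr10:131967684-131981967, minus strand) was at 118, 127 and 121 CPM in non-OSCs and 278, 273 and 277 CPM in OSCs, a log2 fold change of 1.17 ± 0.050 (SE, edgeR adjusted p = 1e-14), and BNIP3L rose from 89.4 ± 3.83 to 230.5 ± 8.31 CPM, a log2 fold change of 1.36 ± 0.055 (SE, edgeR adjusted p = 4.12e-15). FAM162A, a mitochondrial protein, and AK4, a mitochondrial adenylate kinase, rose by 0.73 ± 0.089 and 0.27 ± 0.050.

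All 6 members that act on chromatin or transcription rose in spheres, with a median log2 fold change of 1.54. CITED2, which competes with HIF alpha for the coactivators p300 and CBP (chr6:139371807-139374648, minus strand), was at 21.8, 24.1 and 20.3 CPM in non-OSCs and 106, 109 and 109 CPM in OSCs, with no overlap, a log2 fold change of 2.28 ± 0.078 (SE, edgeR adjusted p = 2.39e-16). MXI1, an antagonist of MYC, rose by 1.99 ± 0.095, and the nuclear receptor RORA by 1.61 ± 0.084. The transcription factor ZNF395 rose by 1.48 ± 0.051, and the histone demethylases KDM4B and KDM3A rose by 1.16 ± 0.082 and 0.98 ± 0.086. Of the 75-base stretches of ZNF395, 32.2% occur also in FBXO16, which went from 1.10 to 3.27 CPM, a small level beside 279.8 ± 5.16 CPM (SD, n = 3) for ZNF395 in OSCs.

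Members that handle lipid, sterol and glycogen rose by a median log2 fold change of 1.78. HILPDA, an inhibitor of lipid breakdown at droplets (chr7:128455849-128458418, plus strand), was at 13.95, 18.02 and 15.5 CPM in non-OSCs and 96.7, 105 and 101 CPM in OSCs, a log2 fold change of 2.68 ± 0.089 (SE, edgeR adjusted p = 1.77e-16). INSIG2, which holds the sterol sensor in the endoplasmic reticulum, rose from 17.3 ± 1.21 to 83.1 ± 7.13 CPM, a log2 fold change of 2.26 ± 0.091 (SE, edgeR adjusted p = 4.06e-15). PPP1R3C, a subunit that directs protein phosphatase 1 to glycogen (chr10:91628442-91633071, minus strand), was low, at 2.98, 3.49 and 2.75 CPM in non-OSCs and 8.36, 7.77 and 6.75 CPM in OSCs. Its groups did not overlap and the log2 fold change was 1.31 ± 0.22 (SE, edgeR adjusted p = 2.14e-05). The glycogen branching enzyme GBE1 rose by 0.49 ± 0.073.

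The 3 members with other roles also rose. ANKRD37, an ankyrin repeat protein of little known function (chr4:185396021-185400628, plus strand), was at 3.08, 3.49 and 2.42 CPM in non-OSCs and 20.9, 20.5 and 21.5 CPM in OSCs, with no overlap and a log2 fold change of 2.80 ± 0.17 (SE, edgeR adjusted p = 2.61e-12). Of its exon bases, 40.3% lie opposite UFSP2, whose log2 fold change was 0.24 (edgeR adjusted p = 0.0602). FAM13A and PPFIA4, a liprin scaffold protein, rose by 1.76 ± 0.094 and 1.67 ± 0.13. Per kilobase, PPFIA4 was the lowest member in OSCs at 2.66 CPM per kb and CA9 the lowest in non-OSCs at 0.197. HIF1A passed from the second place in non-OSCs to the ninth in OSCs, at 49.0 CPM per kb, while its own level did not pass the test.

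Genes of the same pathway that are no members were listed for reference. Over all genes tested between OSCs and non-OSCs, 32.4% were called higher and 31.5% lower. Of 12 partners of HIF, 11 were tested between OSCs and non-OSCs (HIF3A was not), and 4 were higher and 6 lower, with a median log2 fold change of -0.20. SIAH2 and SIAH1, ubiquitin ligases that act on the prolyl hydroxylases, rose by 0.82 and 0.46, whereas HSP90AA1 and RACK1, which bind HIF-1 alpha, fell with log2 fold changes of -0.91 and -0.67. Of 26 further hypoxia targets outside glycolysis, 24 were higher and 2 lower, with a median of 1.35. HMOX1, which degrades heme, rose by 4.79 and the secreted glycoprotein STC1 by 3.54, and TFRC, the transferrin receptor, fell with a log2 fold change of -2.18. Of 21 glycolytic targets, 14 were higher and 5 lower, with a median of 0.43.

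The hairpin libraries asked what PDK1 knockdown does to the same genes. Both hairpin comparisons share the 3 shCtrl libraries, so their values are given side by side. With shPDK1#1, 12 of 42 members passed, all of them higher, where 3.06% of all genes passed (1.62% higher and 1.44% lower). No member was called lower by edgeR, while at an unadjusted p under 0.05, which 14.5% of all genes passed, 16 targets were higher and 3 lower, and by DESeq2 1 member, AK4, was lower. The median log2 fold change was 0.13 beside 0.00 over all genes, and 21 members showed no overlap between shPDK1#1 and shCtrl, against 19.3% of all genes. With shPDK1#2, 25 of 42 members passed, 21 higher and 4 lower, where 26.2% of all genes passed (12% higher and 14.2% lower). At an unadjusted p under 0.05, which 36.2% of all genes passed, 20 targets were higher and 5 lower. The median was 0.19 beside 0.01 over all genes, and 29 members did not overlap, against 39.5% of all genes. Only DDIT4 and PPP1R3C among the 42 members changed by at least 2-fold with either hairpin, against 0.172% of all genes with shPDK1#1 and 2.08% with shPDK1#2.

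**Figure D4:**
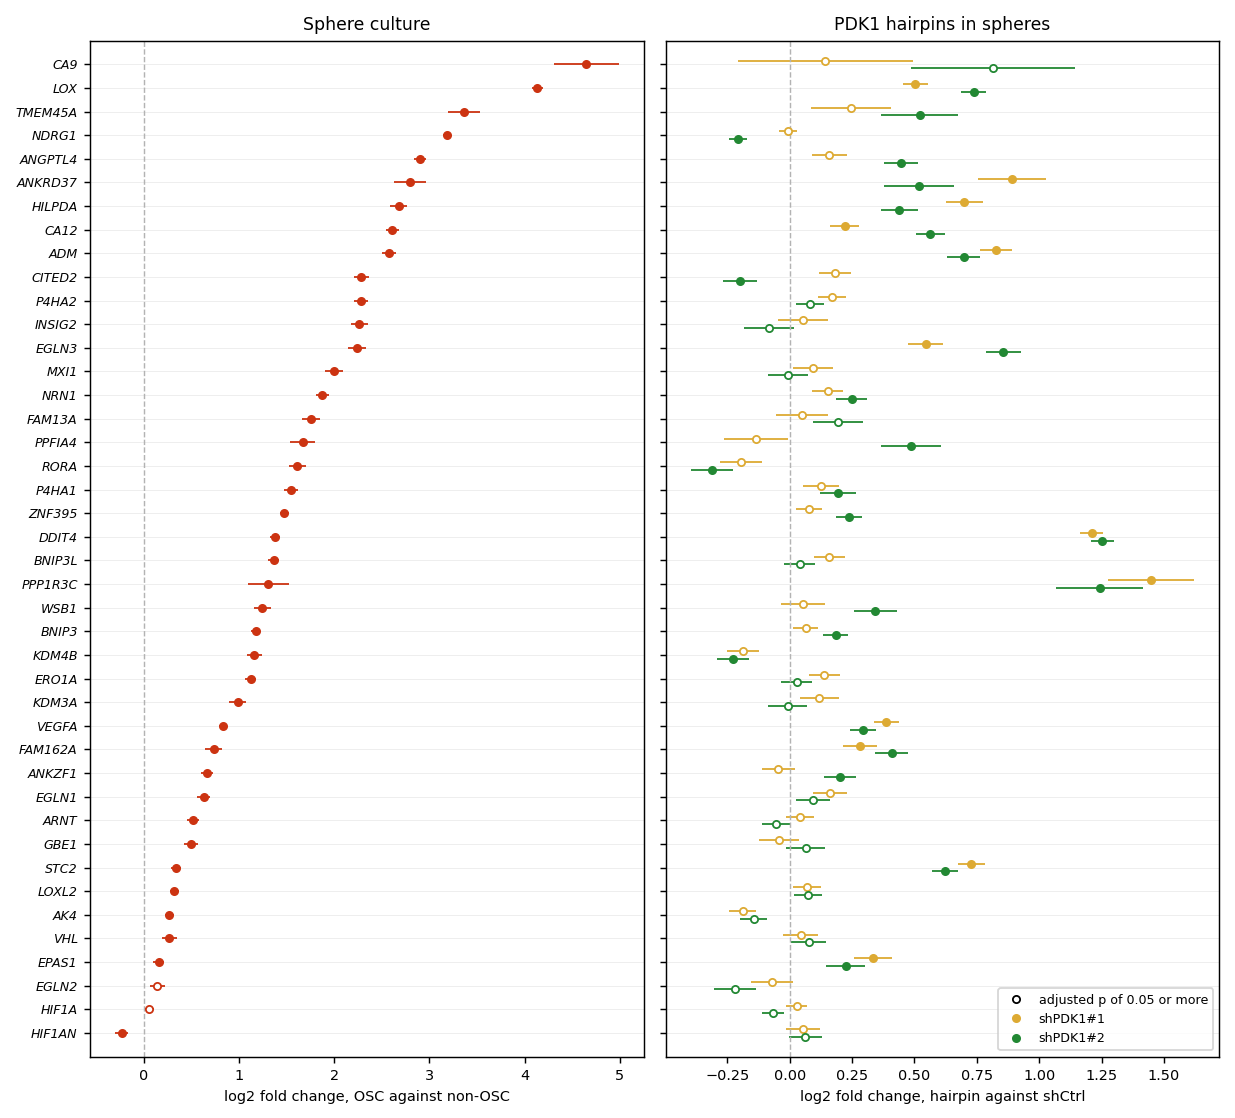
Log2 fold change (horizontal axis) of each of the 42 members in OSCs over non-OSCs, shPDK1#1 over shCtrl and shPDK1#2 over shCtrl, where bars are SE and filled points passed an adjusted p of 0.05. Sphere values reach 4.65, whereas with either hairpin only DDIT4 and PPP1R3C are above 1.

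DDIT4 and PPP1R3C changed most with both hairpins. DDIT4 was at 118, 115 and 115 CPM in shCtrl, at 262, 274 and 268 CPM in shPDK1#1 and at 277, 266 and 286 CPM in shPDK1#2. No hairpin library overlapped shCtrl, and the log2 fold changes were 1.21 ± 0.045 (SE, edgeR adjusted p = 7.59e-16) and 1.25 ± 0.045 (SE, edgeR adjusted p = 9.62e-17). The direct difference between the hairpins had a 95% interval of -0.04 to 0.13 on the log2 scale (edgeR adjusted p = 0.538). PPP1R3C was at 3.83, 4.41 and 5.70 CPM in shCtrl, 10.8, 13.4 and 13.5 in shPDK1#1 and 10.3, 12.0 and 10.5 in shPDK1#2, without overlap between shCtrl and either hairpin. Its log2 fold changes were 1.45 ± 0.17 (SE, edgeR adjusted p = 6.6e-06) and 1.24 ± 0.17 (SE, edgeR adjusted p = 4.35e-06).

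Of the 6 members grouped as vessel, secreted or surface genes, 6 rose with shPDK1#2 and 3 with shPDK1#1, with medians of 0.48 and 0.32. Over all genes, 12% and 1.62% were called higher. Members placed under other roles, such as LOX, its relative LOXL2 and the surface enzymes CA9 and CA12, are not among the 6. LOX and CA12 rose with both hairpins, and CA9 and LOXL2 passed with neither. ADM was at 53.1, 52.6 and 56.0 CPM in shCtrl, 90.6, 95.6 and 99.8 in shPDK1#1 and 84.2, 83.8 and 94.0 in shPDK1#2, with no overlap between shCtrl and either hairpin, and its log2 fold changes were 0.83 ± 0.065 (SE, edgeR adjusted p = 2.73e-09) and 0.70 ± 0.065 (SE, edgeR adjusted p = 6.19e-09). STC2 was at 85.7 ± 0.996, 142 ± 2.13 and 132 ± 6.76 CPM (SD, n = 3), with log2 fold changes of 0.73 ± 0.052 (SE, edgeR adjusted p = 5.73e-10) and 0.62 ± 0.052 (SE, edgeR adjusted p = 1.08e-09). For STC2 both values were above its log2 fold change in spheres, 0.34, a contrast made in another table and not tested against these. VEGFA was at 142, 135 and 142 CPM in shCtrl, 176, 189 and 182 in shPDK1#1 and 165, 165 and 183 in shPDK1#2, and its log2 fold changes were 0.39 ± 0.051 (SE, edgeR adjusted p = 2.69e-05) and 0.29 ± 0.051 (SE, edgeR adjusted p = 8e-05). ANGPTL4, TMEM45A and NRN1 rose by 0.45 ± 0.068, 0.52 ± 0.15 and 0.25 ± 0.061 with shPDK1#2 and did not pass with shPDK1#1, where their values were 0.16 ± 0.069, 0.25 ± 0.16 and 0.15 ± 0.062. The TMEM45A call was lost under 2 of 12 other settings (without shCtrl replicate 3 and without shPDK1#2 replicate 1), with an edgeR adjusted p of up to 0.0928.

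**Figure D5:**
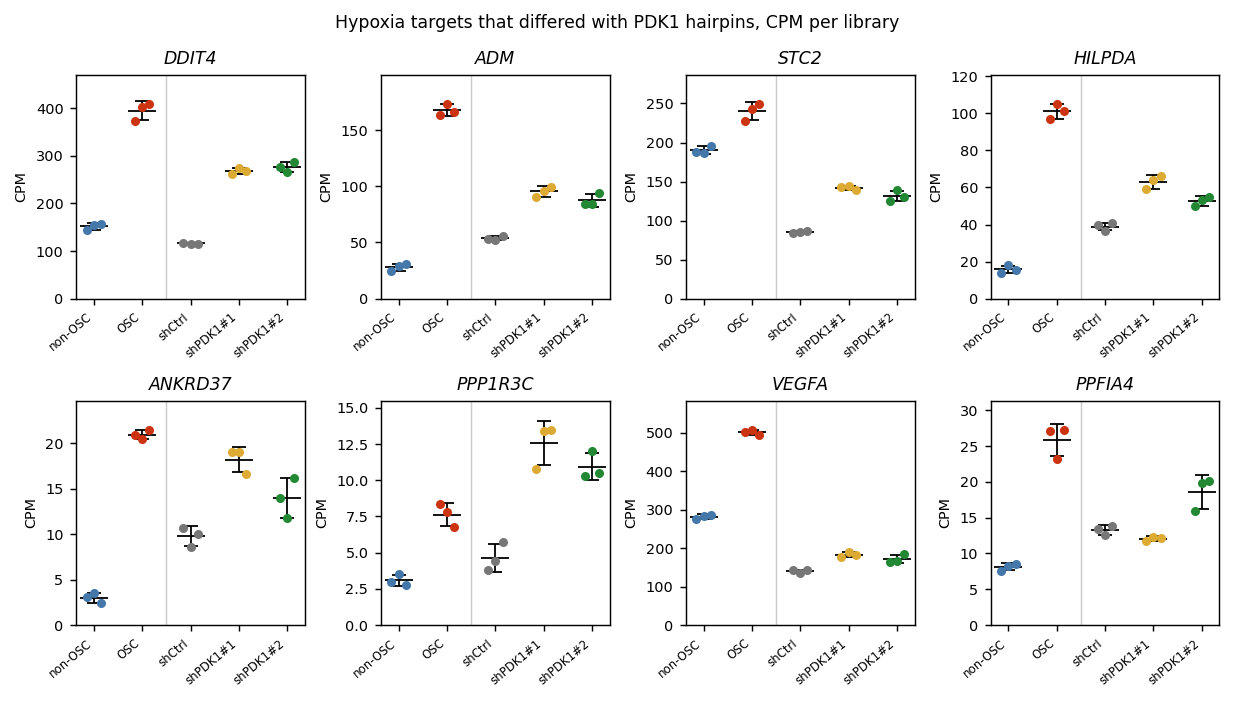
CPM (vertical axis) of DDIT4, ADM, STC2, HILPDA, ANKRD37, PPP1R3C, VEGFA and PPFIA4 in the 5 conditions, where dots are libraries, bars are means of 3, error bars are SD and a grey line separates the separately normalized tables. DDIT4 and PPP1R3C have the largest fold changes with both hairpins, although PPP1R3C is low in CPM, and PPFIA4 is raised with shPDK1#2 and not with shPDK1#1.

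HILPDA and ANKRD37 rose with both hairpins. HILPDA was at 39.5, 36.6 and 40.5 CPM in shCtrl, 59.0, 63.7 and 66.0 in shPDK1#1 and 49.7, 53.2 and 55.0 in shPDK1#2, with log2 fold changes of 0.70 ± 0.074 (SE, edgeR adjusted p = 8.3e-07) and 0.44 ± 0.075 (SE, edgeR adjusted p = 6.25e-05). ANKRD37 was at 10.7, 8.62 and 10.04 CPM in shCtrl, 19.0, 19.0 and 16.6 in shPDK1#1 and 13.9, 11.8 and 16.2 in shPDK1#2, with log2 fold changes of 0.89 ± 0.14 (SE, edgeR adjusted p = 0.000205) and 0.52 ± 0.14 (SE, edgeR adjusted p = 0.00717). In both genes the libraries of each hairpin lay above those of shCtrl, and the shPDK1#2 call of ANKRD37 was lost under 2 of 12 other settings (without shCtrl replicate 2 and without shPDK1#2 replicate 3), with an edgeR adjusted p of up to 0.0605. The direct difference, with higher values for shPDK1#1, was lost under 2 of 12 other settings for HILPDA (without shPDK1#1 replicate 3 and without shPDK1#2 replicate 1, adjusted p of up to 0.0766 by edgeR) and under 7 of 12 for ANKRD37, as given with the comparison of the hairpins. The other lipid and glycogen members, INSIG2 and GBE1, did not pass with either hairpin, and INSIG2 had 95% intervals of -0.15 to 0.26 and -0.29 to 0.13.

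LOX and CA12 rose with both hairpins and more with shPDK1#2. LOX was at 122, 134 and 135 CPM in shCtrl, 186, 184 and 185 in shPDK1#1 and 218, 205 and 229 in shPDK1#2. The 3 groups did not overlap, and the log2 fold changes were 0.50 ± 0.051 (SE, edgeR adjusted p = 4.39e-07) and 0.74 ± 0.050 (SE, edgeR adjusted p = 1.84e-11). CA12 rose by 0.22 ± 0.059 (SE, edgeR adjusted p = 0.0391) and 0.56 ± 0.058 (SE, edgeR adjusted p = 3.26e-08) on the log2 scale. The shPDK1#1 call of CA12 was lost under 8 of 12 other settings (without shCtrl replicate 1, 2 or 3, without shPDK1#1 replicate 1, 2 or 3, with library sizes alone and with only the compared groups in the fit), with an edgeR adjusted p of up to 0.161. CA9 was low in all 3 groups, at 1.83 ± 0.479, 2.03 ± 0.546 and 3.19 ± 0.404 CPM (SD, n = 3), and did not pass. P4HA1 rose with shPDK1#2, a log2 fold change of 0.19 ± 0.072 (SE, edgeR adjusted p = 0.0481), and this call was lost under 7 of 12 other settings (without shCtrl replicate 1, 2 or 3, without shPDK1#2 replicate 1 or 3, with DESeq2 and with library sizes alone), with an edgeR or DESeq2 adjusted p of up to 0.247. P4HA2 and LOXL2 did not pass with either hairpin.

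Within the HIF pathway, EGLN3 and EPAS1 passed with both hairpins. EGLN3 was at 37.3, 38.4 and 42.4 CPM in shCtrl, 57.7, 57.9 and 56.5 in shPDK1#1 and 73.0, 71.6 and 68.8 in shPDK1#2, with log2 fold changes of 0.55 ± 0.070 (SE, edgeR adjusted p = 1.95e-05) and 0.86 ± 0.068 (SE, edgeR adjusted p = 4e-10). EPAS1 was at 53.2, 54.5 and 48.9 CPM in shCtrl, 69.5, 57.1 and 71.0 in shPDK1#1 and 59.2, 62.8 and 61.3 in shPDK1#2, with log2 fold changes of 0.33 ± 0.077 (SE, edgeR adjusted p = 0.0127) and 0.22 ± 0.077 (SE, edgeR adjusted p = 0.0326). No hairpin library of EGLN3 or EPAS1 overlapped shCtrl. The EPAS1 call was lost for shPDK1#1 under 3 of 12 other settings (without shCtrl replicate 3 and without shPDK1#1 replicate 1 or 3), with an edgeR adjusted p of up to 0.128, and for shPDK1#2 under 4 of 12 other settings (without shCtrl replicate 1 or 3 and without shPDK1#2 replicate 2 or 3), with an edgeR adjusted p of up to 0.15. HIF1A did not pass, with 95% intervals of -0.06 to 0.12 for shPDK1#1 and -0.16 to 0.02 for shPDK1#2. ARNT, VHL, HIF1AN and EGLN1 did not pass with either hairpin, and their log2 values lay between -0.06 and 0.16. EGLN2 had a value of -0.22 ± 0.084 (SE, edgeR adjusted p = 0.0574) with shPDK1#2, which passed under 6 of 12 other settings (without shPDK1#2 replicate 2, with library sizes alone, with no filter on low counts, with at least 10 counts required in every library, with a replicate block and with only the compared groups in the fit).

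The 4 members called lower with shPDK1#2 were NDRG1, RORA, KDM4B and CITED2. NDRG1, the member with the highest level in spheres, was at 1094, 1089.8 and 1155 CPM in shCtrl, 1084, 1162 and 1077 in shPDK1#1 and 924, 986 and 982 in shPDK1#2. The shPDK1#2 libraries lay below all others. NDRG1 fell with shPDK1#2, with a log2 fold change of -0.21 ± 0.037 (SE, edgeR adjusted p = 0.000122), and its value with shPDK1#1 was -0.01 ± 0.037 (SE, edgeR adjusted p = 0.968). RORA and KDM4B fell with shPDK1#2, with log2 fold changes of -0.31 ± 0.085 (SE, edgeR adjusted p = 0.00748) and -0.23 ± 0.063 (SE, edgeR adjusted p = 0.00825). With shPDK1#1 their values had the same sign and did not pass, at -0.19 ± 0.085 (SE, edgeR adjusted p = 0.275) for RORA and -0.19 ± 0.063 (SE, edgeR adjusted p = 0.123) for KDM4B, whose shPDK1#1 and shCtrl libraries did not overlap. CITED2 fell with a log2 fold change of -0.20 ± 0.067 (SE, edgeR adjusted p = 0.0294), and its value with shPDK1#1 was 0.18 ± 0.066. The CITED2 call was lost under 5 of 12 other settings (without shCtrl replicate 2 or 3, without shPDK1#2 replicate 1 or 3 and with no filter on low counts), with an edgeR adjusted p of up to 0.118. Of the other members that act on transcription, ZNF395 rose with shPDK1#2 by 0.24 ± 0.051, and MXI1 and KDM3A did not pass with either hairpin.

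Of the mitochondrial members, FAM162A rose with both hairpins, by 0.28 ± 0.068 (SE, edgeR adjusted p = 0.0179) and 0.41 ± 0.067 (SE, edgeR adjusted p = 3.84e-05). The first call was lost under 4 of 12 other settings (without shCtrl replicate 1 or 2 and without shPDK1#1 replicate 1 or 3), with an edgeR adjusted p of up to 0.124. BNIP3 rose with shPDK1#2 by 0.18 ± 0.050, a call lost under 1 of 12 other settings (without shPDK1#2 replicate 3), with an edgeR adjusted p of up to 0.0724. BNIP3L did not pass, with 95% intervals of 0.03 to 0.29 and -0.09 to 0.17. WSB1 and ANKZF1 rose with shPDK1#2 by 0.34 ± 0.086 and 0.20 ± 0.064, and the ANKZF1 call was lost under 3 of 12 other settings (without shCtrl replicate 1 or 3 and without shPDK1#2 replicate 3), with an edgeR adjusted p of up to 0.147. ERO1A and FAM13A did not pass with either hairpin. AK4, of whose 75-base stretches 12.8% occur in other genes, had values of -0.19 ± 0.056 (SE, edgeR adjusted p = 0.0652) and -0.14 ± 0.055 (SE, edgeR adjusted p = 0.0541). It passed as lower with shPDK1#1 under 3 of 12 other settings (with DESeq2, with library sizes alone and with at least 10 counts required in every library), and with shPDK1#2 under 4 of 12 (without shPDK1#2 replicate 3, with library sizes alone, with a replicate block and with only the compared groups in the fit).

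The hairpins were also compared with each other, which tests whether their effects differ. This contrast does not use the shCtrl levels, although the shCtrl libraries entered the filter, scaling and spread estimate of the fit. Of 42 members 12 differed, 8 higher and 4 lower in shPDK1#2, where 16.3% of all genes differed (6.5% higher and 9.78% lower). None of the 12 reached 2-fold by edgeR, which 0.947% of all genes did, and at an unadjusted p under 0.05, which 28.3% of all genes passed, 9 targets were higher and 6 lower. The median difference was -0.02 beside 0.00 over all genes, and 18 members did not overlap, against 30.7% of all genes. PPFIA4 was at 13.5, 12.5 and 13.9 CPM in shCtrl, 11.7, 12.3 and 12.2 in shPDK1#1 and 15.9, 19.9 and 20.1 in shPDK1#2, and its log2 difference between hairpins was 0.62 ± 0.12 (SE, edgeR adjusted p = 0.000583). CITED2 was at 61.3, 61.6 and 65.4 CPM in shPDK1#1 and 49.1, 49.4 and 46.4 in shPDK1#2, a log2 difference of -0.38 ± 0.066 (SE, edgeR adjusted p = 0.000142). CA12, EGLN3, ANGPTL4 and LOX were higher with shPDK1#2 by 0.34, 0.31, 0.29 and 0.23, with 95% intervals of 0.23 to 0.46, 0.18 to 0.44, 0.15 to 0.43 and 0.13 to 0.33. ANKRD37 was lower, by a log2 difference of -0.38 ± 0.13 (SE, edgeR adjusted p = 0.0449), a call lost under 7 of 12 other settings (without shPDK1#1 replicate 1 or 2, without shPDK1#2 replicate 1 or 2, with DESeq2, with no filter on low counts and with only the compared groups in the fit), with an edgeR or DESeq2 adjusted p of up to 0.216.

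Among genes that are no members, no HIF partner passed with shPDK1#1 by edgeR, with 2 higher at an unadjusted p under 0.05 and 1 higher by DESeq2. With shPDK1#2, RACK1 and HSP90AA1 rose by 0.21 and 0.16, and ARNT2, an alternative beta subunit, SIAH1 and the coactivator EP300 fell with log2 fold changes of -0.44, -0.29 and -0.21. Of the 26 further hypoxia targets, 6 were higher with shPDK1#1, where 1.62% of all genes were higher. These included the chemokine receptor CXCR4 (0.65) and the transcription factor NFIL3 (0.56). With shPDK1#2, 5 were higher and 8 lower, where 12% of all genes were higher and 14.2% lower. NFIL3 was at 0.32 and CXCR4 at -0.62. The direct log2 difference for CXCR4 was -1.27 ± 0.18 (SE, edgeR adjusted p = 7.76e-06).

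The tables were normalized separately, so levels set across them are descriptions without a test. The shCtrl cells are described as OSCs by the study and differ from the OSC libraries also by lentiviral infection. The shCtrl mean lay between the non-OSC and OSC means in 34 of 42 members (81.0%), against 55.9% of the 14047 genes tested in both tables. It lay below the OSC mean in 40 of 42 members (95.2%), against 47.4% of all genes. Both counts depend on the sphere change itself, since 39 of 42 members were called higher in OSCs, against 32.4% of all genes. They are therefore not independent of it, although the sphere change does not fix where shCtrl lies. In VEGFA, STC2, DDIT4, EPAS1, LOXL2, AK4 and GBE1 the shCtrl mean lay below both the non-OSC and the OSC mean. In HIF1A it lay above both. For DDIT4 the shCtrl mean was 116 CPM, against 152 in non-OSCs and 394 in OSCs. For VEGFA it was 140 CPM, against 282 and 501. The reason was not tested. Across the 42 members, the log2 fold change in spheres and that with shPDK1#1 had a Spearman rho of 0.376 and a Pearson r of 0.216, and with shPDK1#2 a rho of 0.389 and an r of 0.375. These are correlations across genes, which are not independent replicates, in tables that share no library.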

How the data were processed

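RNA was sequenced paired-end in 15 libraries, 3 per condition. Per the labels and the submitters' processing notes, the authors used Trimmomatic 0.39, FastQC 0.12.1, STAR 2.7.11a and RSEM 1.3.3 on GRCh38.p14, and deposited expected counts per gene, not normalized, in 2 tables. The annotation and strand setting are not given in the sources used here. Of the deposited expected counts, 6.85% and 6.92% were not whole, and all were rounded. Each table was fitted separately with edgeR 4.0.16 (filterByExpr, TMM, quasi-likelihood test, Benjamini-Hochberg adjustment, threshold 0.05) in R 4.3.3, with limma 3.58.1 and DESeq2 1.42.0. CPM used TMM library sizes, and per-kb levels used merged exons of GENCODE 44. Scripts were tested on simulated data. The exact permutation test of 3 against 3 libraries cannot go below 0.1 and was not used.

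The members, gene lists (HIF partners, further and glycolytic targets, cell type markers) and tests were chosen with earlier results of these data known. Named members are all 8 HIF pathway genes, the 10 largest called changes of targets in spheres and the 5 largest in each hairpin comparison, in each direction, and others when accounting for a role. Alternatives were DESeq2, library size alone, other filters on low counts, a replicate block, only the compared groups, and each library left out. HIF protein and oxygen were not measured.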

Additional observations from a re-analysis of the deposited data

Results flagged for a closer look

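Of the 42 members, 12 differed between the effects of the 2 PDK1 hairpins when shPDK1#2 was tested directly against shPDK1#1 by edgeR (adjusted p of 0.05), where 16.3% of all genes tested differed. The log2 difference, shPDK1#2 minus shPDK1#1, was 0.62 for PPFIA4, 0.34 for CA12, 0.31 for EGLN3, 0.29 for WSB1, 0.29 for ANGPTL4, 0.25 for ANKZF1, 0.23 for LOX and 0.16 for ZNF395. It was -0.38 for CITED2, -0.38 for ANKRD37, -0.26 for HILPDA and -0.20 for NDRG1. In 3 of the 12 (PPFIA4, ANKZF1 and CITED2) the values against the shared shCtrl libraries had opposite signs. For shPDK1#1 and shPDK1#2 they were -0.13 and 0.49, -0.05 and 0.20, and 0.18 and -0.20. None of the 3 shPDK1#1 values passed, with edgeR adjusted p of 0.706, 0.829 and 0.159. The shPDK1#2 calls of ANKZF1 and CITED2 were lost under 3 and 5 of 12 other settings. For these genes the values show a difference between the hairpins, and opposite effects were not shown. The level of the target PDK1 itself was 28.0 ± 0.842 CPM in the shPDK1#1 libraries (SD, n = 3), against 19.8 ± 1.65 in the shPDK1#2 libraries, and the part of this depth of knockdown in the differences was not tested.

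The direct difference was lost for WSB1 under 3 of 12 other settings (without shPDK1#1 replicate 1 or 3 and without shPDK1#2 replicate 1), with an edgeR adjusted p of up to 0.089. For ZNF395 it was lost under 3 of 12 other settings (without shPDK1#1 replicate 1 or 3 and without shPDK1#2 replicate 3), with an edgeR adjusted p of up to 0.189. For HILPDA it was lost under 2 of 12 other settings (without shPDK1#1 replicate 3 and without shPDK1#2 replicate 1), with an edgeR adjusted p of up to 0.0766, and for ANKZF1 under 1 of 12 other settings (without shPDK1#2 replicate 3), with an edgeR adjusted p of up to 0.0746.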

How the results depend on the processing

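No called value changed sign under any alternative run. Of the 168 values of members, 14 that were not called, all between -0.04 and 0.14, changed sign under 1 to 4 alternatives, namely HIF1A, VHL, NDRG1, CA9, INSIG2, GBE1, WSB1 and FAM13A with shPDK1#1, KDM3A, MXI1 and ERO1A with shPDK1#2, and VHL, HIF1AN and LOXL2 between the hairpins, so these have no direction. The number of genes called with shPDK1#1 was 446 and ranged from 245 to 508 when 1 library was left out, with 270 without shCtrl replicate 1, 282 without shCtrl replicate 2 and 245 without shPDK1#1 replicate 3. The number of members called ranged, over the libraries left out, from 39 to 40 in spheres, 9 to 12 with shPDK1#1, 20 to 25 with shPDK1#2 and 9 to 14 between the hairpins. Members called under every alternative were 39 of 40 in spheres, 9 of 12 with shPDK1#1, 18 of 25 with shPDK1#2 and 7 of 12 between the hairpins. Without shPDK1#2 replicate 1, the members lower in the direct comparison of the hairpins were 2, against 4. With shPDK1#1, 1 member (AK4) was lower by DESeq2, with library size alone and with at least 10 counts in every library, against 0. The causes were not tested. No scaling moved the median of all genes by 0.1 on the log2 scale.

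Whether replicate numbers pair the libraries was not settled, since the correlations were weak. Over the 3 pairs of the first table the correlation of deviations lay between -0.0103 and 0.0992, and over the 9 pairs of the second between -0.0449 and 0.136, with 4 of 6 and 3 of 9 libraries most like one of their own number. With a replicate block, 9420 genes and 40 members were called in spheres, 507 and 12 with shPDK1#1, 3943 and 27 with shPDK1#2, and 2522 and 12 between the hairpins.

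Depth limits the low members most, since CA9 in non-OSCs rests on 2 to 4 counts per library.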

Other observations

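Among the 26 further hypoxia targets that are no members, a list chosen with earlier results of these data known, 1 was higher and 10 were lower with shPDK1#2 than with shPDK1#1 by edgeR, where 6.5% of all genes were higher and 9.78% lower, and their median log2 difference was -0.16. The largest were CXCR4, a chemokine receptor (-1.27), CCNG2, a cyclin linked to growth arrest (-0.83), and BHLHE40, a transcriptional repressor (-0.78). CXCR4 was at 9.74, 10.9 and 7.44 CPM in shCtrl, 13.8, 15.9 and 14.8 in shPDK1#1 and 4.18, 7.37 and 6.97 in shPDK1#2. Of the 42 members, 8 were higher and 4 lower in the same comparison. Of the 21 glycolytic targets, which include PDK1, 8 were higher and 1 lower with shPDK1#1, where 1.62% of all genes were higher and 1.44% lower. With shPDK1#2, 10 were higher and 2 lower, where 12% of all genes were higher and 14.2% lower. Between the hairpins, 6 were higher and 4 lower. The gene lower with shPDK1#1 was PDK1 itself, the target of the hairpins, and PDK1 was also 1 of the 2 lower with shPDK1#2.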
